A study of Drosophila melanogaster with 2 samples.

Results

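The genes of the Drosophila JAK-STAT pathway were examined for promoter peaks of the chromatin protein gfzf, with Socs36E, the gene of the set with the strongest peak, at the centre. The set held 10 of the 13968 protein-coding genes analysed. These were the ligands upd1 and upd2, the receptor dome, the kinase hop, the transcription factor Stat92E, and the inhibitors Socs36E, Socs16D, Socs44A, Ptp61F and Su(var)2-10. The set was chosen on the peak values of the same lists, in which Socs36E ranked 10, so its signals and ranks are given as a description and carry no test. A gene was counted as bound when the summit of a peak lay within 250 bp of any of its transcription start sites.

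The peaks came from chromatin immunoprecipitation followed by sequencing (ChIP-seq) on whole Drosophila melanogaster embryos, males and females together, collected over the first 24 h of development. Every embryo sample carried a transgene that expresses gfzf with green fluorescent protein (GFP) at its C-terminus, and the antibody was directed at GFP. There were 2 biological replicates in 1 group, so the design holds no contrast between genotypes, ages or tissues, and no immunoprecipitate from untagged embryos was analysed here. Whether separate embryo collections lie behind them is not in the labels, so the spread between them may be technical. Sonication gave chromatin of 200 to 800 bp, and a whole embryo mixes all tissues and stages, so binding in few cells and weak binding in all cells cannot be told apart. Values were read from 4 lists on the dm6 build: the optimal set of 5007 lines that passed the authors' filter for irreproducible peaks, and the relaxed lists of 30000 lines each for the pooled reads, replicate 1 and replicate 2. The signal is the authors' peak score, whose scale no source states, and rank 1 is the strongest line of a list. The sequencing depth is not given in the sources used here.

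In this pathway, secreted cytokines of the Unpaired family bind the transmembrane receptor Domeless, the receptor-associated kinase Hopscotch is activated, and phosphorylated Stat92E enters the nucleus and activates genes. Socs36E is one of the genes that Stat92E activates, and its protein, a suppressor of cytokine signalling, dampens the pathway in turn. In the embryo the pathway is known for its part in segmentation, tracheal development and the shaping of the gut. The gfzf protein combines zinc fingers of the FLYWCH type with a domain related to glutathione S-transferases, and it has been linked to promoters of genes used in most cells.

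The sequences under the summits are shown first, because they let the strongest member peak be set beside weaker ones at letter level. Each is 150 bases of the dm6 reference (RefSeq Release 6), read 5′ to 3′ on the minus strand, which is the coding strand of each of these genes. Capitals mark a match to a searched motif, and lower case marks all other bases. The Socs36E stretch is chr2L:18152418-18152567, the bases just upstream of its only start site, and its summit is base 82. The dome stretch is chrX:19683519-19683668, also just upstream of the only start site, with its summit at base 83. The Stat92E stretch is chr3R:20551108-20551257, just upstream of the downstream start site and within an intron of the longer transcripts, with its summit at base 127. The Socs16D stretch is chrX:17827566-17827715 and the Ptp61F stretch is chr3L:1350678-1350827, each with its summit at base 75. The hop stretch is chrX:11368295-11368444, which lies 197 to 346 bp upstream of the hop start site and holds the nearest summit at base 53.
Socs36E: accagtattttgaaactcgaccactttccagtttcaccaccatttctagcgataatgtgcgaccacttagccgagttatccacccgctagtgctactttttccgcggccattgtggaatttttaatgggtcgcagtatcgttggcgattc
dome: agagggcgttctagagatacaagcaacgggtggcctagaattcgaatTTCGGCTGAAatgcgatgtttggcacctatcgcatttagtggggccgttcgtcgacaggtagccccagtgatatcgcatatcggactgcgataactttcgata
Stat92E: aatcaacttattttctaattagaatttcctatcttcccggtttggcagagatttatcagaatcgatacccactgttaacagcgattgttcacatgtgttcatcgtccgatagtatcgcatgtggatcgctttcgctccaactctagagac
Socs16D: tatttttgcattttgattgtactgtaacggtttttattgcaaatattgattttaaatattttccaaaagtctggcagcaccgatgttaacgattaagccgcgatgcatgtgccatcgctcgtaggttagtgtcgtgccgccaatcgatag
Ptp61F: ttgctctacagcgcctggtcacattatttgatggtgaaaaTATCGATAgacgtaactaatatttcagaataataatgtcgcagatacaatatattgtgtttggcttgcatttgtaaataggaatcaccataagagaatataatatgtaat
hop: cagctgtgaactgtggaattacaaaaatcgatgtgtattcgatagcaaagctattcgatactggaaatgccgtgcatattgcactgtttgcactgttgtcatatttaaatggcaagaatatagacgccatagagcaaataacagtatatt

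The stretch under the strongest of these summits, at Socs36E, held no match to any of the 8 motifs searched, and neither did those of Stat92E, Socs16D and hop. The dome stretch held 1 match to a form of the STAT site, TTC and GAA with 4 bases between them, and the Ptp61F stretch held 1 match to the DNA replication-related element (DRE), TATCGATA. A match is a run of letters and does not show that a factor binds there.

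Of the 10 genes, 7 had a peak in the optimal set, with 9 lines in all, beside 33.0% of all protein-coding genes (95% exact interval 32.2 to 33.8, 4609 genes). In the relaxed lists, 8 of the 10 had a line in the pooled list (51.6% of all genes), 7 in that of replicate 1 (51.5%) and 9 in that of replicate 2 (50.1%). By role, the optimal set held peaks at the receptor, the transcription factor and all 5 inhibitors, and at neither the kinase nor the ligands. Because the members were picked with these peaks in view, the share of members is read against the background only as a description. The median signal of the 7 bound members was 1119, and that of all bound genes was 724. Their signals ran from 91.1 at Socs44A to 9923 at Socs36E, which spans nearly the whole range of ranks in the set.

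**Figure D1:**
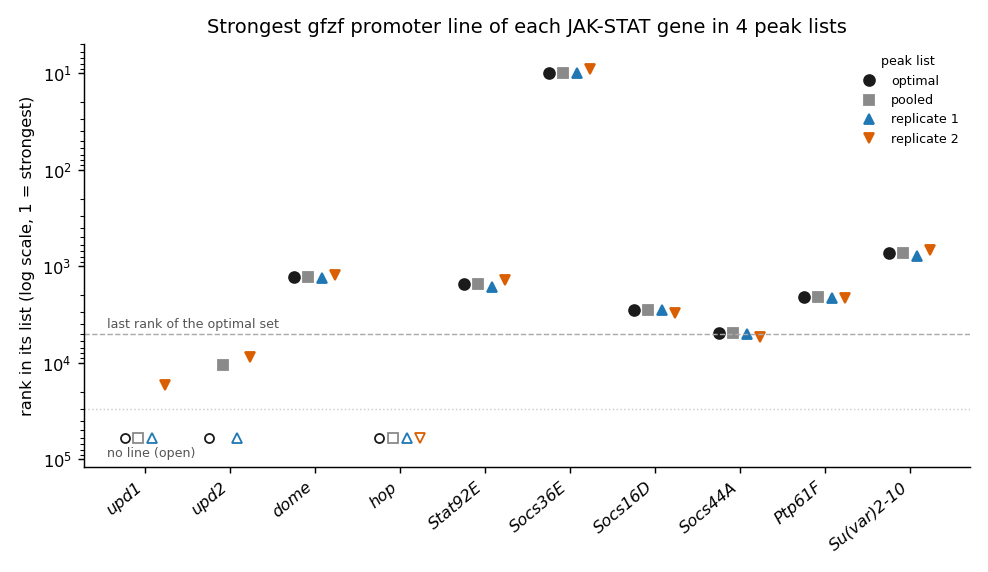
Rank of the strongest line within 250 bp of a start site of each gene (log scale, 1 is the strongest) in the optimal, pooled, replicate 1 and replicate 2 lists; open symbols mark genes with no line in that list, the dashed line is the last rank of the optimal set and the dotted line the last rank of the relaxed lists. Socs36E stands at ranks 9 and 10 in all lists, and hop has only open symbols.

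The ligand genes had no peak in the optimal set. For upd1 (FBgn0004956, chromosome X, minus strand), which encodes the founding ligand of the pathway, neither the pooled list nor replicate 1 held a line at any of its 3 start sites. Replicate 2 held a line with a signal of 10.1 at rank 16969, 36 bp from the start site at 18309291, with a deposited −log10 q-value of 0.619. For upd2 (FBgn0030904, chromosome X, minus strand), a ligand known for its role in the fat body, the pooled list held a line with a signal of 30.3 at rank 10567, 153 bp from the start site at 18243284. Replicate 2 held that line with a signal of 16.9 at rank 8632, and replicate 1 held none. Neither ligand gene therefore had a line in both replicates. The nearest summit of the optimal set lay 12253 bp from a start site of upd1 and 78260 bp from that of upd2.

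The receptor gene was bound at moderate strength. At dome (FBgn0043903, chromosome X, minus strand), the optimal line ran from 19683303 to 19683973 with its summit at 19683586, 68 bp upstream of the start site, between genes. Its signal was 1414 at rank 1300. The signal was 849 at rank 1336 in replicate 1 and 567 at rank 1238 in replicate 2, so the replicates placed it alike, and 64.5% of bound genes had a lower-ranked peak. The same summit lay 222 bp from the start site of Ubqn, a ubiquilin gene on the other strand that begins 290 bp away, so 1 peak bound both genes by the rule.

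The kinase gene was the member nearest to the distance limit without passing it. No list held a line within 250 bp of the start site of hop (FBgn0004864, chromosome X, minus strand, 11368098). The nearest optimal summit, at 11368392, lay 294 bp upstream, with a signal of 186 at rank 3362. That summit lay 53 bp from the start site of Tim8, which encodes a small chaperone of mitochondrial import and is transcribed the other way from 347 bp away. Of the bound members, the farthest from their start sites were Socs44A at 159 bp and Ptp61F at 154 bp.

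At the transcription factor gene the peak lay at the downstream promoter. Stat92E (FBgn0016917, chromosome 3R, minus strand) has 11 annotated transcripts, of which 5 start at 20552311 and 6 at 20551107. The optimal line from 20550667 to 20551444 had its summit at 20551131, 24 bp upstream of the downstream start site, and a signal of 1119 at rank 1526. The signal there was 631 at rank 1626 in replicate 1 and 494 at rank 1385 in replicate 2. A weaker summit in the same pooled interval, 223 bp upstream of that start site, had a pooled signal of 67.4 at rank 5896 and was not in the optimal set. At the upstream promoter no optimal line was present. The relaxed lists held lines there with a signal of 40.2 at rank 8171 in the pool, 28.4 at rank 7937 in replicate 1 and 7.99 at rank 23516 in replicate 2. Both replicates thus placed the downstream promoter far above the upstream one.

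**Figure D2:**
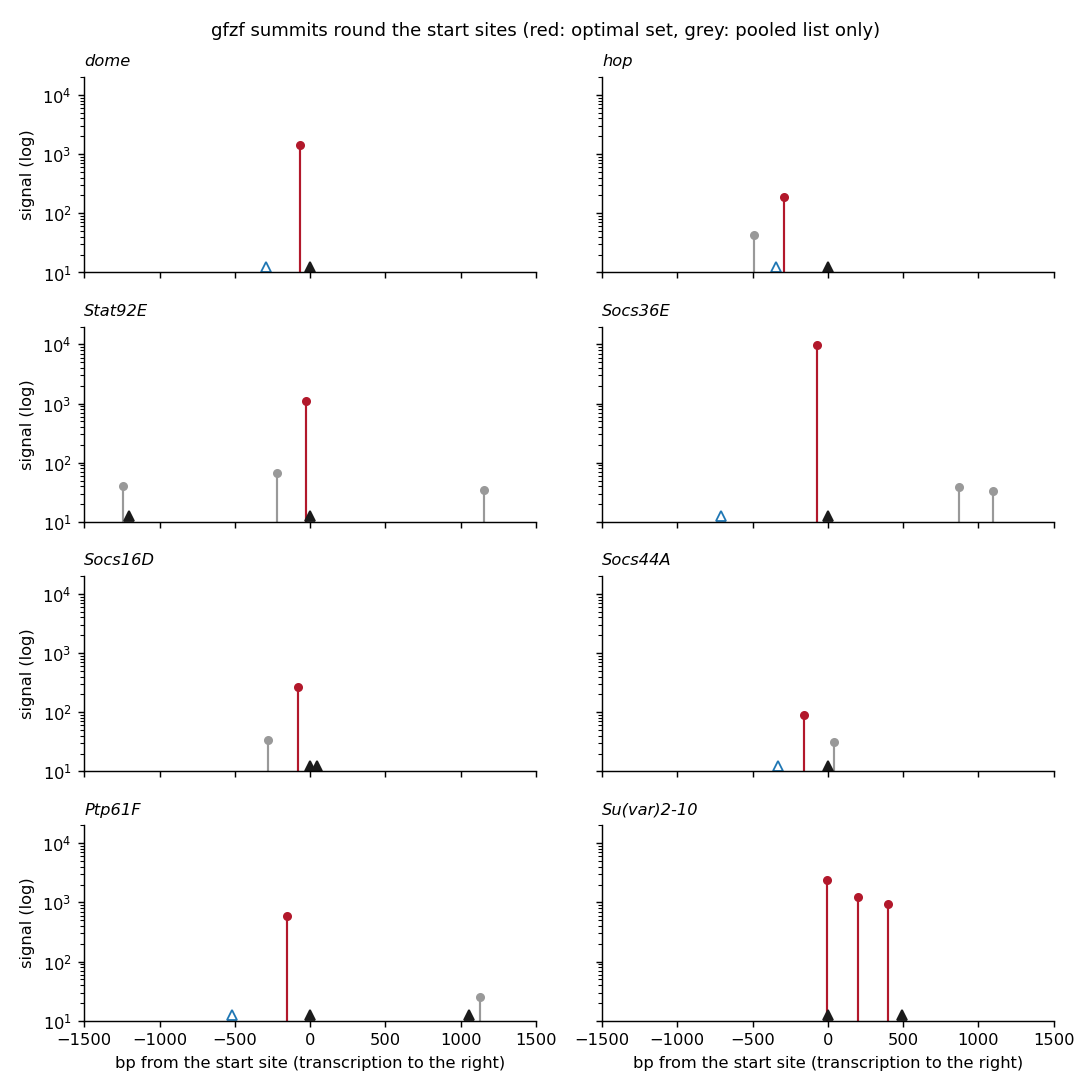
Summits around the bound or nearest start site of 8 genes, by distance in bp (transcription runs to the right) and signal (log scale); red marks the optimal set, grey the pooled list only, filled triangles the gene's own start sites and open triangles start sites of neighbouring genes. In the optimal set, single summits stand just upstream of Socs36E, dome and the downstream start site of Stat92E, 3 stand across Su(var)2-10, and the summit near hop stands beside the start site of its neighbour.

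Among the inhibitors, Socs36E (FBgn0041184, chromosome 2L, minus strand) carried the strongest peak. The optimal line ran from 18152055 to 18153179, a width of 1125 bp that exceeded 92.8% of the lines of the set. Its summit at 18152486 lay 69 bp upstream of the start site at 18152417, which all 3 annotated transcripts share, and outside any gene. The signal was 9923 at rank 10 in the optimal and pooled lists, 5956 at rank 10 in replicate 1 and 3995 at rank 9 in replicate 2. The replicate summits lay 64 and 70 bp from the start site, so they fell within 6 bp of each other. The peak outranked those of 99.7% of bound genes. The optimal set held no further summit in the gene, which is 13743 bp long. The 11 pooled summits that stood inside it beyond 250 bp of the start site reached at most a signal of 52.4, at rank 6808. The next optimal summit lay 6319 bp from the start site, with a signal of 3269 at rank 448.

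By rank, the promoter peaks most like that of Socs36E were at Lk6, a protein kinase gene (signal 10654, rank 8), and at ATPsynC, an ATP synthase subunit gene (9963, rank 9). Below it were a peak shared by CG6693 and RpL3, a ribosomal protein gene (9368, rank 11), and one at T48, which acts in gastrulation (9225, rank 12). The likeness is that of rank in 1 list, and the ranks of these peaks lay between 7 and 14 in both replicates.

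The other members of the Socs family had far weaker peaks. At Socs16D (FBgn0030869, chromosome X, minus strand), which encodes another protein with a SOCS box, the optimal line ran from 17827449 to 17827814. Its summit at 17827641 lay 77 bp upstream of the nearer start site. The signal was 266 at rank 2827 in the optimal set, 177 at rank 2823 in replicate 1 and 92.1 at rank 3081 in replicate 2. At Socs44A (FBgn0033266, plus strand), reported to modulate JAK-STAT signalling in the wing, the summit lay 159 bp upstream of the start site. Its signal was 91.1 at rank 4926 of 5007, and only 0.824% of bound genes had a lower-ranked peak. The replicate lists held lines with a signal of 59.3 at rank 5053 in replicate 1 and 31.5 at rank 5359 in replicate 2, with summits nearer the start site, at 61 and 75 bp. Both ranks lie past 5007, so the gene was not bound among the 5007 strongest lines of either replicate alone. The Socs44A summit also lay 174 bp from the start site of coil, the coilin gene, which begins 333 bp away on the other strand.

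At Ptp61F (FBgn0267487, chromosome 3L, minus strand), which encodes a tyrosine phosphatase that acts on the kinase and on Stat92E, 1 of 4 promoters was bound. The gene is 132765 bp long. The optimal line from 1350430 to 1351017 had its summit at 1350753, in an intron and 154 bp upstream of the start site at 1350599. Its signal was 582 at rank 2082, with 363 at rank 2112 in replicate 1 and 221 at rank 2119 in replicate 2. The promoter at 1349542 had lines in the relaxed lists only, with a pooled signal of 24.9 at rank 13312. The upstream promoters, at 1475257 and 1424979, had no line in any list. A further optimal summit stood inside the gene at 1352259, 1660 bp from the nearest start site, with a signal of 121 at rank 4250.

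Su(var)2-10 (FBgn0003612, plus strand) encodes the fly PIAS protein, a SUMO ligase that restrains Stat92E. Its peak was the broadest of the members, at 1333 bp, wider than 97.2% of the lines of the set, and it held 3 of the 9 optimal lines. The summits stood 3 bp from the first of its 2 start sites, 198 bp downstream in the 5′ untranslated region, and 98 bp upstream of the second start site in an intron. Their signals were 2420, 1259 and 928, at ranks 728, 1423 and 1704. In replicate 1 the signals were 1411, 688 and 535, and in replicate 2 they were 981, 570 and 281, so both replicates gave the same falling order along the gene. Neighbouring summits of 1 interval stood at least 199 bp apart over the whole set, with a median of 207 bp (645 gaps), so the spacing at this gene was that found across the list.

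To describe the members beside the spread between replicates, log2 signals were centred on each list's median over the 4075 promoter peaks that both lists held, out of 4188. Replicates of 1 peak differed by a median of 0.16 and by up to 0.84 at the 95th percentile, on this log2 scale. All 9 lines of the members differed by less than 0.84. The centred log2 signal (mean ± SD, n = 2) was 4.24 ± 0.12 at Socs36E, 2.19 ± 0.16 at the first summit of Su(var)2-10, 1.43 ± 0.12 at dome and 1.11 ± 0.28 at Stat92E. It was 0.14 ± 0.02 at Ptp61F, −1.01 ± 0.14 at Socs16D and −2.58 ± 0.11 at Socs44A. The 7 genes stood in the same order in both replicates in all 21 pairs, and in 18 of them the difference was larger than 0.84 in both. These counts are a description and no test, since the set was chosen on the same signals and 0.84 is the spread of 1 peak measured again, which may be technical.

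Socs36E stood above its nearest neighbour in that order, Su(var)2-10, by 2.08 in replicate 1 and 2.03 in replicate 2, a signal 4.15-fold higher. It stood 38.2-fold above Socs16D and 113-fold above Socs44A, so the genes of the Socs family covered the whole range of the bound members. Neighbours whose difference did not exceed 0.84 in both replicates were Su(var)2-10 and dome (0.73 and 0.79), dome and Stat92E (0.43 and 0.20), and Stat92E and Ptp61F (0.80 and 1.16). Ptp61F stood 2.22-fold above Socs16D, and Socs16D 2.96-fold above Socs44A.

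**Figure D3:**
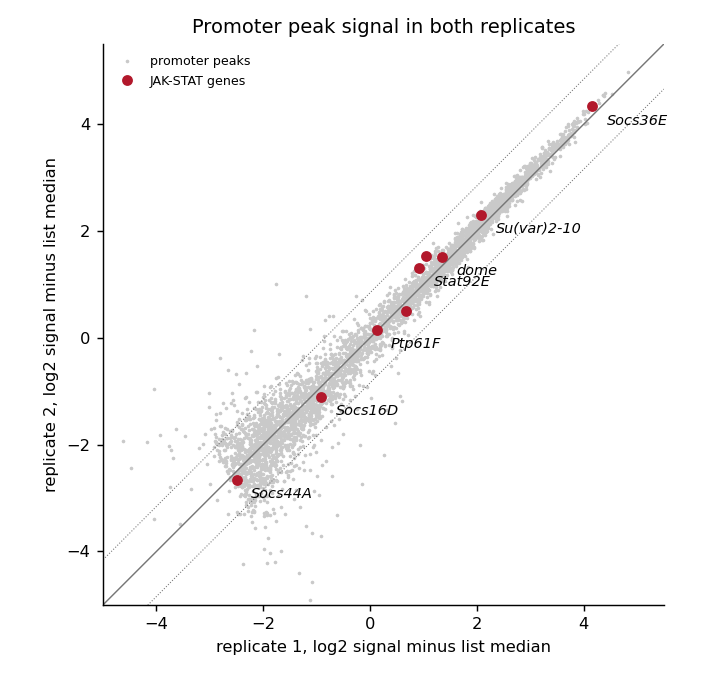
Centred log2 signal of promoter peaks of the optimal set in replicate 1 (x axis) and replicate 2 (y axis), with the lines of the JAK-STAT genes in red; the solid line marks equality and the dotted lines a difference of 0.84, the 95th percentile of all peaks. All 9 red points lie between the dotted lines, from Socs44A at the lower left to Socs36E at the upper right; the unlabelled points are the weaker summits of Su(var)2-10.

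Core promoter motifs were searched on both strands within 100 bp of each summit. Motif 1 (searched by its core GGTCACAC), DRE (searched as TATCGATA), Motif 6 and Motif 7 are elements of broadly used fly promoters. At least 1 of them stood near 4 of the 9 member lines, in 3 of the 7 genes, beside 44.3% of the 4188 promoter summits and 17.9% of the 19275 start sites of all genes. Around dome the match was the Motif 1 core, 74 bp from the summit and 7 bp into the transcript, and at Ptp61F it was DRE, 31 bp from the summit. Around Su(var)2-10, Motif 7 stood 2 bp from the second summit and the Motif 1 core 13 bp from the third. By single motif, the shares of all promoter summits were 20.4% for the Motif 1 core, 13.9% for DRE, 5.18% for Motif 6 and 13.0% for Motif 7. The windows around the optimal summits of Socs36E, Stat92E, Socs16D and Socs44A held none of them. For Socs44A this depends on the summit, which lay 159 bp upstream of the start site in the optimal set. Its replicate summits lay 61 and 75 bp upstream, and a DRE match stood 39 bp upstream. At Socs16D a Motif 7 match stood 17 bp upstream of a start site. Around start sites instead of summits, 5 of the 7 bound members and 0 of the 3 unbound ones had at least 1 of them, beside 2313 of all 4609 bound genes (50.2%) and 939 of the 9359 unbound genes.

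The TATA box, searched as TATAAA, stood at 26.1% of all promoter summits and 26.9% of all start sites. The motif of the GAGA factor, searched as GAGAG, stood at 15.4% of the summits and 4813 of the 19275 start sites. Near the member summits, TATAAA stood only at Socs44A and GAGAG only at the second summit of Su(var)2-10. Near start sites, TATAAA stood in Ptp61F at 1349542 and 1475257. GAGAG stood near start sites of dome, upd1 and upd2 and in Ptp61F at 1349542. The Stat92E site was searched in its forms with 3 and with 4 bases between the outer triplets. Of the bound members, dome and Su(var)2-10 held a STAT-type match within 100 bp of a summit. Across all promoter summits the form with 3 bases between, TTCNNNGAA, was present at 5.83%, close to its share at all start sites, 6.06%. The form with 4 bases was at 5.97% and 6.50%. Within 100 bp downstream of a start site, TTCNNNGAA stood in Socs36E, hop, Su(var)2-10 (82 bp) and Ptp61F, where it lay 56 bp from the start site at 1475257, a promoter with no line in any list. Ptp61F also held the form with 4 bases 17 bp downstream of the start site at 1349542. In Socs36E it lay at chr2L:18152347-18152355, 66 bp into the transcript and 135 bp from the summit, so it fell outside the window around the summit. In hop it lay at chrX:11368054-11368062, 40 bp into the transcript. The matches of Socs36E and hop have the letters of the pathway's own site, as do those of Su(var)2-10 and Ptp61F. The share at all start sites covers 100 bp on both sides, so it is no share for the downstream side alone. The Motif 1 core of dome is the most common of the 4 elements at promoter summits. At start sites it was less common (5.68%) than Motif 7 (6.80%) and DRE (6.44%). The matches of Socs36E, dome and hop are shown on the minus strand of dm6 with their flanking bases, and capitals mark the match.
Socs36E, STAT-type match: acagatacttTTCGGGGAAgcgatacttc
dome, Motif 1 core: ttcgataagcGGTCACACtgcggacaag
hop, STAT-type match: tccgatgaatTTCACTGAAattcgtggct

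The base composition of the member windows varied widely. The G+C share within 100 bp of the summit was 47.3% at Socs36E, 51.2% at dome and 45.3% at Stat92E. At the 3 summits of Su(var)2-10 it was 49.8%, 54.7% and 44.8%. All of these lay above the upper quartile of all promoter summits, 42.8%. The share was 39.3% at Socs16D, between the quartiles. It was 32.3% at Ptp61F and 23.4% at Socs44A, below the lower quartile of 34.3%. Its part in the order of the signals was not tested.

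The wider pathway was described with lists of 17 other regulators and 17 genes reported as Stat92E targets. Of the regulators, 10 of 17 (58.8%) had an optimal peak and 15 (88.2%) a pooled line, beside 33.0% and 51.6% of all genes. Their median signal was 152, below the 724 of all bound genes. In the strongest 2504 lines of the optimal set, 3 of the 17 regulators had a peak, beside 20.2% of all genes, so the higher share of the regulators rested on the weaker lines. The strongest were lwr, the SUMO-conjugating enzyme (2089, rank 883), and the endosomal sorting genes Hrs (1076, rank 1560) and Stam (803, rank 1843). E(bx), a nucleosome remodelling subunit, had a signal of 346 at rank 2544. The other 6 lay between 95.7 and 156: RanBP3 at rank 3671, the transcription factor genes apt at 3789 and ken at 3956, the inositol kinase gene Ipk2 at 3984, the gene of the heterochromatin protein HP1a at 4552, and asrij at 4799. The third ligand gene, upd3, had no line in any list. The genes of the short receptor et, of BRWD3 and of Sumo had lines in the relaxed lists only, at pooled ranks 24890, 7705 and 8752.

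Of the listed Stat92E targets, 1 of 17 (5.88%) had an optimal peak and 3 (17.6%) a pooled line, beside 33.0% and 51.6% of all genes. The bound target was crb, an apical polarity gene, with a signal of 3741 at rank 354, and at ranks 343 and 364 in the replicates. The pooled lines at chinmo and zfh1 stood at ranks 22935 and 23544. All 7 Tot genes, which are induced by stress, the opsonin-like gene Tep1 and the segmentation gene eve had no pooled line. The median distance from a start site to the nearest optimal summit was 15868 bp for the targets and 109 bp for the regulators. Socs36E, itself a known Stat92E target, was counted with the members and not in this list, and the difference between the lists carries no test.

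**Figure D4:**
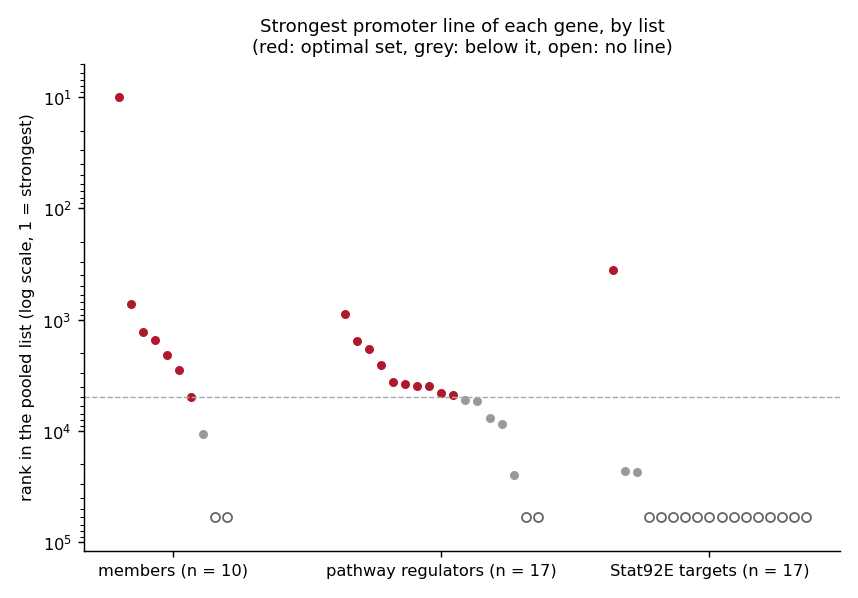
Rank of the strongest pooled line within 250 bp of a start site (log scale, 1 is the strongest) for the 10 members, 17 pathway regulators and 17 listed Stat92E targets; red points are in the optimal set, grey points below it, open points have no pooled line and the dashed line is the last optimal rank. Red points make up 7, 10 and 1 of the 3 lists, beside 33.0% of all protein-coding genes.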

How the data were processed

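The deposited lists cover single replicates, their pooled reads and the optimal set. They have the narrowPeak layout on dm6, in which column 7 is the authors' signal value, column 9 the deposited −log10 of the q-value and column 10 the summit offset. The signal was compared only within a list. Aligner, caller, settings and depth: not given in the sources used here, so no interval covers read counting error. The 5007 optimal lines were the 5007 strongest of the pooled list. The lists on dm3 were not used here.

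Start sites came from the Ensembl release 115 annotation of BDGP6, for protein-coding transcripts, and sequence from RefSeq Release 6. A summit within 250 bp bound a gene, start sites within 100 bp were merged into 1 promoter, and replicate lines were linked within 100 bp of the optimal summit. The strongest line was used. Exact (Clopper-Pearson) intervals at 95% treat genes as independent. The software was Python 3.11.15 and its packages pandas 2.3.3, scipy 1.17.1, numpy 2.4.6 and matplotlib 3.10.9. The motif search and the assignment of summits to start sites were tested on simulated sequences and summits, and the other steps were not. The members and lists were chosen with earlier results of these data known. Genes were named by rule: all members, genes sharing a member peak, and the 2 promoter peaks on each side of Socs36E in rank. Every listed gene with an optimal peak was also named, with up to 4 of each list without. The Tot genes were given as a family beside these. In the lists, 3 genes were renamed to their current symbols (arj to asrij, smt3 to Sumo, Not4 to Cnot4). Alternatives changed the distance, the start site choice, the peak set and the motif window.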

Additional observations from a re-analysis of the deposited data

How the results depend on the processing

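The number of bound members was 7 in the analysis above and lay between 5 and 8 under every alternative run. It was 5 within 100 bp (without Socs44A and Ptp61F), 8 within 500 or 1000 bp (with hop), 5 with the most 5′ start site alone (without Stat92E and Ptp61F), 5 in the strongest 2504 lines (without Socs16D and Socs44A) and 8 in the pooled list (with upd2). It was 6 when either replicate was left out and the 5007 strongest lines of the other were used, without Socs44A each time. Interval overlap and the strongest summit of each interval gave 7. The share of all genes bound was 32.2% without replicate 1, 32.7% without replicate 2 and 33.4% with interval overlap. With either replicate left out, the ranks of the 6 members still bound moved by less than the replicate spread of ranks. The main ranks rest on the pooled reads of both replicates, so they tend to lie near each replicate's own. This comparison is therefore no test of stability. The other alternatives reuse the same lines, so a rank could not move under them. The member lines with a promoter element near the summit numbered 4 of 9 within 100 bp, 3 within 50 bp and 6 within 150 bp, where 44.3%, 31.1% and 48.2% of all promoter summits had one. In the pooled list they numbered 5 of 14, and the share over all pooled promoter summits is not given here, since the shares above cover the optimal set. The share of all genes bound, 33.0%, was 26.6% within 100 bp, 36.9% within 500 bp, 39.3% within 1000 bp, 31.3% with 1 start site per gene, 20.2% in the strongest 2504 lines, 51.6% in the pooled list and 31.8% with 1 summit per interval. The bound regulators fell from 10 to 3 in the strongest 2504 lines, since the peaks of 7 rank below these, and the bound targets numbered 3 in the pooled list. No paired analysis was possible because both replicates belong to 1 group and no test was made. Without read counts, a weak line such as that at Socs44A or upd2 cannot be given a counting error.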

Other observations

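The letters CGATA recur in the printed stretches, and they were counted after those had been seen, so the counts are a description. CGATA lies within DRE, whose letters hold it on both strands. Within 100 bp of the summit and on both strands, dome held 5 copies, Stat92E 3, and Socs36E, Socs16D, Ptp61F and the summit near hop 2 each. The first summit of Su(var)2-10 held 1 copy, its other summits 0, and Socs44A 0. Across all 4188 promoter summits, 51.7% held at least 1 copy, 31.1% at least 2, 17.2% at least 3 and 7.95% at least 4. Across the 19275 start sites these shares were 37.1%, 16.4%, 7.80% and 3.10%. Within 100 bp of the start site instead, dome held 6 copies, Socs44A 4, Socs36E and hop 3 each, and both start sites of Socs16D 2. Stat92E held 3 at its downstream start site and 2 at the upstream one. Ptp61F held 3 at its bound promoter and 0 at its others. Su(var)2-10 held 1 and 0, upd1 at most 2 and upd2 0. Near the summit, Socs36E held as many copies as Socs16D and fewer than dome, and near the start site more than Socs16D. Whether the copies go with the signal was not tested.

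Beyond 250 bp of a start site, the pooled list also held summits inside 8 of the 10 genes: 20 in Ptp61F, 11 in Socs36E, 8 in Stat92E, 4 each in dome, Socs16D and Su(var)2-10, and 1 each in upd2 and hop. The summit of Ptp61F at 1352259 is the 1 among them that the optimal set held. The counts per gene are not scaled by gene length, which is 132765 bp for Ptp61F, 13743 bp for Socs36E and 16989 bp for Stat92E. The share of all genes with such summits was not computed, so the counts do not rank the genes.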
